A study of Mus musculus with 18 samples.

Results

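Regulatory T cells (Tregs) from the infarcted heart were compared with Tregs from a skin wound, using the 3 heart and 3 skin libraries among the 18 bulk RNA sequencing libraries of the study. Both groups came from male Foxp3(DTR/GFP) mice, 10 weeks old, whose Foxp3 locus carries a diphtheria toxin receptor and green fluorescent protein reporter, so that every group compared here shares that allele. Heart Tregs were sorted on day 7 after myocardial infarction produced by tying off the left coronary artery, and skin Tregs on day 7 after a full-thickness biopsy punch. Every heart and skin library holds cells of 3 pooled mice, so that single animals cannot be told apart, and uninjured heart and uninjured skin were not analysed here. The 6 libraries of uninjured spleen Tregs, from mice of the same strain, sex and age (whether these were pooled is not stated), stand beside the results as a reference. The 3 libraries each of injured bone and muscle entered the filter on low counts, the scaling and the estimate of the spread.

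Tregs are CD4 T cells that hold immune responses in check under the transcription factor Foxp3. Cells that recirculate through lymphoid organs keep genes of the naive T cell, while cells that settle in tissue switch many of these off and take on effector genes, among them the IL-33 receptor Il1rl1 and repair factors such as amphiregulin. Which tissue a T cell enters depends on its integrins, its chemokine receptors and the sugar-modifying enzymes that make selectin ligands.

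Foxp3 transcripts were found in every library at 746, 711 and 624 CPM (counts scaled to a common library total and for library composition) in heart replicates 1 to 3 and at 837, 814 and 718 CPM in skin, and the groups did not differ by the test (log2 fold change -0.16 ± 0.16 SE, adjusted p = 0.763). Total counts ran from 11139361 to 12974890 in heart and from 8375212 to 11907745 in skin. Names of the sequencing libraries came in styles with the words Endo or Tregs: heart replicate 1 and all skin libraries had the first, heart replicates 2 and 3 the other, and spleen 3 of each. The style was therefore kept as a term in the model, and fold changes are adjusted for it, while levels in CPM are not. The style itself had 131 called genes (0.823%), 9 of them among the 379 described below. Heart replicate 1 also stood apart in markers of macrophages and monocytes, with a summed 107 CPM over 12 genes against 13.1 and 13.2 CPM in the other heart libraries and 5.26 to 21.9 CPM in skin. It was at once the only Endo library of heart, and calls that were lost without it are given as such where the gene is described. Without it all heart libraries had the Tregs style and all skin libraries the Endo style, so that the style term rested on spleen alone. Calls lost without heart replicate 1 can therefore not be put down to its own values alone.

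Of 15926 genes tested, 379 (2.38%) passed a false discovery rate of 0.05 and are said here to be called: 237 (1.49%) were higher in heart and 142 (0.892%) higher in skin. The median fold change of called genes was larger on the heart side (1.52 on the log2 scale) than on the skin side (1.09), and the median over all genes tested was 0.015. In 370 of the 379 called genes the 3 heart libraries did not overlap the 3 skin libraries, which was the case for 27.5% of all genes tested. Without heart replicate 1 there were 238 called genes, without skin replicate 1 216 and without skin replicate 3 205. On the heart side these 3 omissions left 134, 150 and 139 genes, and on the skin side 104, 66 and 66, where leaving out skin replicate 2 or heart replicate 2 left 76 or 84. Called in all 26 alternative analyses that tested them were 63 genes higher in heart and 23 higher in skin. In bulk RNA, fewer cells that express a gene and less of its RNA per cell cannot be told apart.

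**Figure D1:**
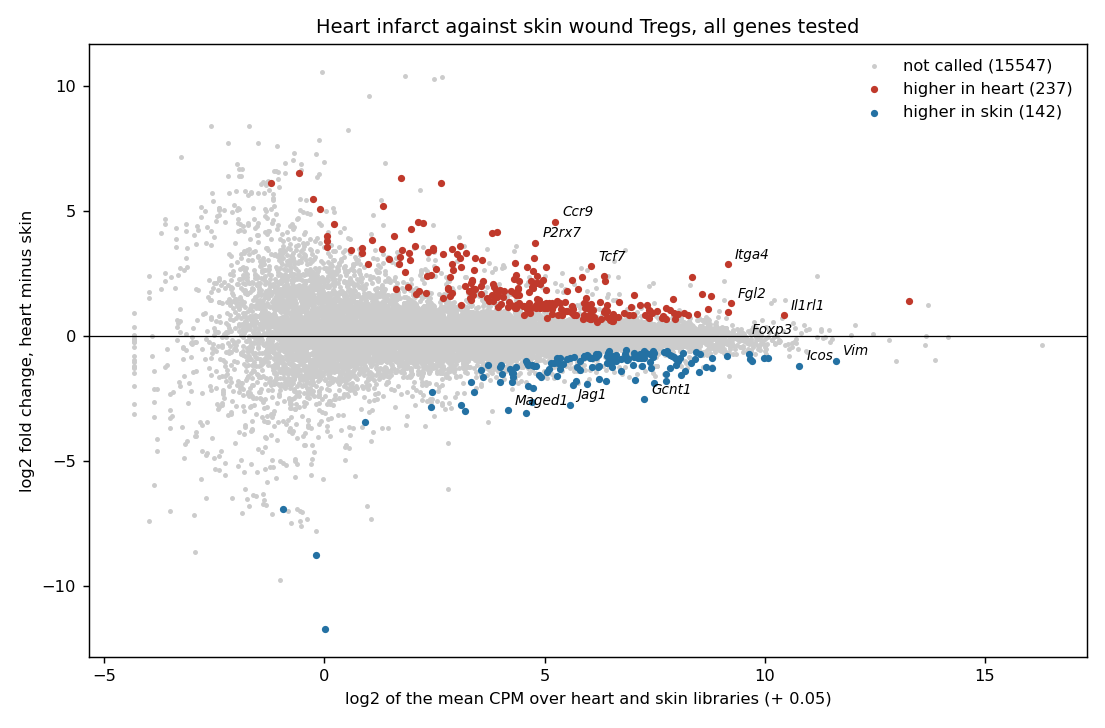
Each point is 1 of 15926 genes tested; the x axis is the log2 of the mean CPM over heart and skin libraries and the y axis the log2 fold change of heart minus skin, adjusted for naming style. Red points (237) were called higher in heart and blue points (142) higher in skin; Itga4 and Tcf7 stand out among well expressed genes on the heart side, Gcnt1 and Jag1 on the skin side, and Foxp3 lies near 0.

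Spleen showed where the called genes stood in resting lymphoid Tregs. Among the 237 genes higher in heart, skin lay below all 6 spleen libraries in 173, and heart lay above all of them in 56. Both tissues were below all spleen libraries for 75 of the 237, with heart between skin and spleen. Among the 142 genes higher in skin, skin lay above every spleen library in 124, and in 80 of these both tissues did. For most called genes, then, skin lay outside the range of the 6 spleen libraries, while distances from spleen were not measured. Skin differed from spleen in more of all 15926 genes tested than heart did. By the test, 15.5% were higher and 11.5% lower in skin, and 14.3% and 8.76% in heart. The counts above were not taken over all genes, so they are not read as a trait of the called genes. The comparisons with spleen share the heart and skin libraries with the comparison described here.

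Genes of naive and lymphoid T cells differed in 1 direction. Of 25 measured members of that list, 12 were higher in heart and 0 higher in skin in edgeR's test (DESeq2 14 and 0, limma-voom 12 and 0, unadjusted p under 0.05 18 and 1), and the list's median log2 fold change was 1.66. Under the alternatives the count on the heart side ran from 10 to 15. Heart and skin libraries did not overlap, with heart above, in 16 of the 25 (13.7% of all genes tested). Against spleen, 22 of the 25 were lower in heart, where 8.76% of all genes were, and 24 were lower in skin (11.5% of all genes), so that most of these genes were low in both tissues and lowest in skin.

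Tcf7, the transcription factor TCF-1 of naive and memory T cells, stood at 119, 87.6 and 146 CPM in heart and at 15.4, 17.4 and 14.4 CPM in skin, while spleen ran from 337 to 488 CPM with a median of 430. Its log2 fold change was 2.78 ± 0.22 (6.87-fold, adjusted p = 3.64e-08). Every heart library lay between skin and spleen. Bach2, a repressor that holds T cells back from effector differentiation, stood at 44.4, 30.8 and 30.9 CPM in heart and at 2.49, 8.24 and 4.08 CPM in skin, with 125 to 164 CPM in spleen (median 143). The difference was 2.92 ± 0.34 on the log2 scale (adjusted p = 2.37e-05). Bcl2, the survival factor that naive T cells depend on, had 48.6, 37.1 and 60.8 CPM in heart, 2.95, 6.55 and 6.64 CPM in skin and 201 to 272 CPM in spleen (median 220; 3.11 ± 0.27, adjusted p = 1.53e-07). P2rx7, the ATP-gated channel, whose activation by ATP or through Art2 enzymes kills T cells, reached 44.1, 40.5 and 70.3 CPM in heart against 1.94, 7.57 and 1.28 CPM in skin and 148 to 199 CPM in spleen (median 169; 3.74 ± 0.48, adjusted p = 0.000637). Art2b, one of those ADP-ribosyltransferases, had 7.35, 8.1 and 14.8 CPM in heart and at most 1.02 CPM in skin (adjusted p = 1.04e-05). All 5 genes kept their call in every alternative.

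The other called members were Igfbp4 (log2 fold change 4.56), St8sia1 (2.89), Treml2 (2.43), Evl (1.97), Actn1 (1.66), Klf3 (1.02) and Klf2 (0.91). Klf2 is the factor that turns on S1pr1, a gene of exit from lymph nodes. Its call was lost without heart replicate 1 (adjusted p = 0.0907), skin replicate 1 (0.102), skin replicate 3 (0.0654) or the bone and muscle libraries (0.0541). That of Treml2 was lost without heart replicate 1 (0.0565) and with limma-voom (0.0804). With Endo libraries alone the calls of Klf2 and Klf3 were lost, at 0.88 and 0.83 on the log2 scale. Not every gene of the recirculating T cell took part. S1pr1, the egress receptor, had 294, 247 and 281 CPM in heart and 281, 255 and 281 CPM in skin (adjusted p = 0.888). Ccr7, the lymph node homing receptor, stood at 171, 118 and 150 CPM in heart and at 60.8, 54.2 and 64.1 CPM in skin, without overlap but without a call (1.69 ± 0.47, adjusted p = 0.0886). Il7r leaned to skin with no call (-0.59 ± 0.24, adjusted p = 0.232).

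Markers of B cells, which share Bach2 and Bcl2 with T cells, moved in the same direction: their sum over 10 genes was 75.2, 22 and 56.4 CPM in heart, 12.7 to 16.5 CPM in skin and 51.5 to 142 CPM in spleen. Ms4a1, or CD20, was the only called member in edgeR's test, with 6.12, 1.34 and 5.9 CPM in heart and at most 0.677 CPM in skin (adjusted p = 0.215 without heart replicate 1). DESeq2 called 6 of the 10 higher in heart, Endo libraries alone 6, no filter on low counts 7 and limma-voom 0, and 7 had an unadjusted p under 0.05. Heart replicate 2 had the lowest sum of B cell markers of the heart libraries, still above every skin library. Tcf7 (87.6 CPM) and Bach2 (30.8 CPM) were also lowest in that heart library, and Itga4 (1040 CPM) was highest. Without heart replicate 1, 10 naive list members were called, with heart replicate 3 and its sum of 56.4 CPM still included. The part of B cells in the difference of the naive list was not tested.

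**Figure D2:**
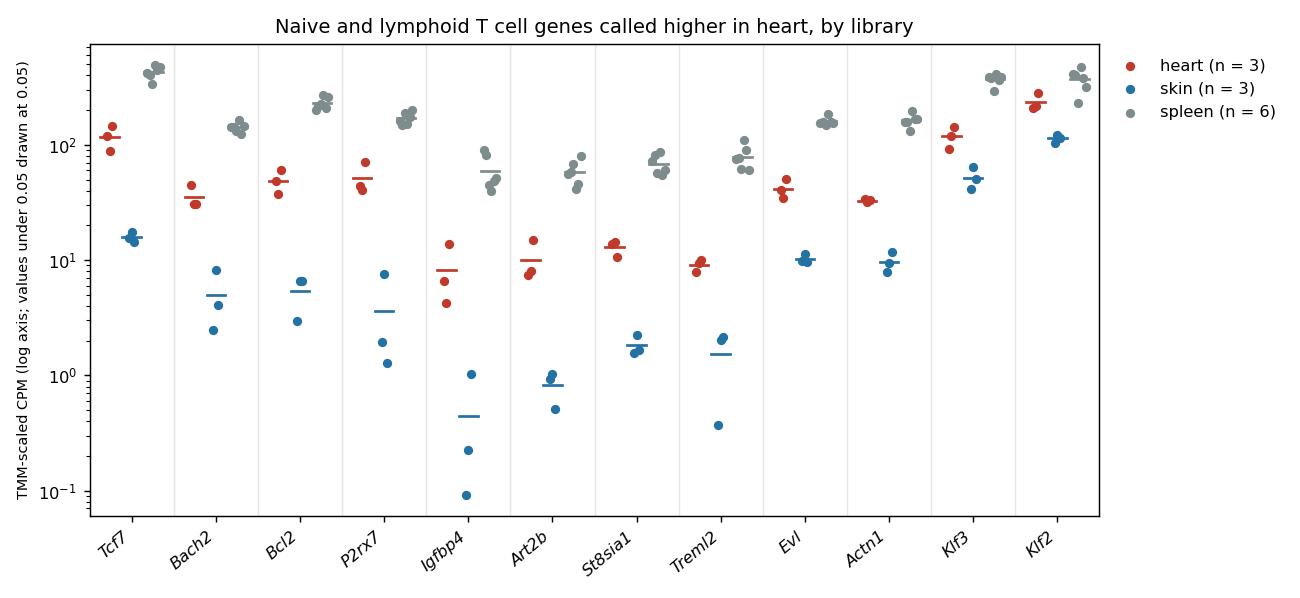
CPM on a log axis for the 12 naive and lymphoid T cell genes called higher in heart; each dot is 1 library of heart (n = 3), skin (n = 3) or spleen (n = 6), and the short lines are group means. For Tcf7, Bach2, Bcl2 and P2rx7 all heart libraries lie between skin below and spleen above.

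Homing and adhesion genes were divided between the tissues. Among 25 integrins and genes of homing ligands, 1 was higher in heart (Itga4) and 4 were higher in skin (Icam1, Itgae, Itgb8, Gcnt1), with a list median of -0.22. Among 20 chemokine and related receptors, 3 were higher in heart (Ccr9, Cxcr5, Cxcr3) and 3 in skin (among them Gpr183 and Gpr15), with a median of -0.04. Without heart replicate 1 the skin counts were 2 and 1 in these lists, and without skin replicate 1 or 3 the heart count of receptors was 1.

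Itga4 encodes the alpha 4 integrin chain, which pairs with beta 1 to bind VCAM-1 and with beta 7 to bind MAdCAM-1 of gut vessels. The gene lies on chromosome 2 at 79255426-79333123 on the plus strand (GRCm38). It had the smallest adjusted p of the genes named here (5.07e-09), with 988, 1040 and 1030 CPM in heart and 104, 119 and 136 CPM in skin, a 7.32-fold difference (2.87 ± 0.2 on the log2 scale). Heart lay within the spleen range of 659 to 1310 CPM (median 928), and the test against spleen gave an adjusted p of 0.608, so that skin was the group that stood apart. Its partner chains were not called: Itgb1 had 416, 409 and 495 CPM in heart and 220, 284 and 286 CPM in skin (0.62 ± 0.19, adjusted p = 0.0913), and Itgb7 457, 422 and 555 CPM in heart and 961, 587 and 572 CPM in skin (adjusted p = 0.723). Cerkl overlaps Itga4 on the other strand.

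Ccr9 is the receptor for CCL25, the chemokine of small intestine and thymus. Ccr9 stood at 32.5, 113 and 76.6 CPM in heart and at 1.2, 2.6 and 1.66 CPM in skin (4.56 ± 0.81 on the log2 scale, adjusted p = 0.00824), and spleen ran from 12.6 to 36 CPM (median 18.7). All heart libraries exceeded all skin libraries, although heart replicate 1 was well below the other heart libraries. The call was narrowly lost without skin replicate 1 (adjusted p = 0.0552) or skin replicate 3 (0.0528). Lztfl1, a cilia and trafficking protein also made in T cells, lies in the same stretch of chromosome 9 on the other strand (123694416-123717697), inside the span that GENCODE M21 gives to Ccr9 (123678439-123784330). Lztfl1 had 82.7, 108 and 107 CPM in heart, 11.5, 19.9 and 18.2 CPM in skin and 15.4 to 30.6 CPM in spleen (median 26.7), a difference of 2.37 ± 0.26 (adjusted p = 5.35e-06) that was called in every alternative. Since the strand setting of the read counting is not given in the sources used here, reads of the overlapping stretch cannot be assigned to either gene with certainty.

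The promoters of Itga4, the 1 integrin called higher in heart, and of the overlapping pair Ccr9 and Lztfl1 are shown. Each is the 250 bases before the RefSeq start on GRCm38.p6, 5′ to 3′ on the gene's strand, at chr2:79255176-79255425 (+ strand), chr9:123766961-123767210 (+ strand) and chr9:123717626-123717875 (- strand). Capitals mark matches, on either strand, to the RUNX core TGTGGT, the AP-1 element TGANTCA, the nuclear receptor half-site AGGTCA and the hypoxia core ACGTG, whose overlapping matches merge.

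Itga4: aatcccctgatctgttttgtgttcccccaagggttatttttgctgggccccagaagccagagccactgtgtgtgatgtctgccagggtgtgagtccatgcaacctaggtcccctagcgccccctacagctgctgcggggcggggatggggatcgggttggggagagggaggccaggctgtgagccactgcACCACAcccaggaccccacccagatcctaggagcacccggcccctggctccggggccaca

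Ccr9: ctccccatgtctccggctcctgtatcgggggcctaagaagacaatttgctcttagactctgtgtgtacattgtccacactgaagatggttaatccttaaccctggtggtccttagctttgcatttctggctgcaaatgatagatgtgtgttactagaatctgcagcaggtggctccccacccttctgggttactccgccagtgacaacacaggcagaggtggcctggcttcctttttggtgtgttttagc

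Lztfl1: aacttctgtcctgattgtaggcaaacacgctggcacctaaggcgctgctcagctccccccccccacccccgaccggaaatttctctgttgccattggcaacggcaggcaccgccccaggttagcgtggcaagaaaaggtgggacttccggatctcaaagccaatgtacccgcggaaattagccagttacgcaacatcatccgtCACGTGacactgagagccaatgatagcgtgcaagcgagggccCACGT

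Itga4 held 1 RUNX core at 60 to 55 bases before the start, Lztfl1 held the hypoxia core at 46 to 42, 47 to 43 and 5 to 1 bases before it, and none of the 4 motifs was in the window of Ccr9. RUNX cores were in 13.5% of the promoters of the 9685 tested genes that had one, in 19.1% of those of 162 genes higher in heart and in 16.3% of those of 104 genes higher in skin. AP-1 elements were in 5.13%, 8.02% and 7.69% of the same sets, and half-sites in 12.9%, 16% and 11.5%. A gene counted when any of its listed promoters held the motif, and these shares are descriptions.

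Cxcr5, which guides lymphocytes into B cell follicles, had 19.8, 16.8 and 20.5 CPM in heart, 0.646, 3.05 and 2.93 CPM in skin and 38.4 to 92.7 CPM in spleen (median 69; 3.13 ± 0.54, adjusted p = 0.00393). Heart again stood between skin and spleen, and no alternative ended the call. Cxcr3, the receptor of interferon-induced chemokines, differed less (1.2 ± 0.27, adjusted p = 0.0133) and lost its call without skin replicate 1 (0.0534) or 3 (0.0654), with limma-voom (0.0523) and with Endo libraries alone, where it was 0.63 (0.12). Cxcr6 and Ccr8, receptors common on tissue Tregs, were not called (1.31 and -0.37 on the log2 scale, adjusted p = 0.191 and 0.445).

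On the skin side, Gcnt1 makes core 2 O-glycans, the base on which T cells build selectin ligands for entry into skin. It stood at 50.1, 29.8 and 32.6 CPM in heart, at 284, 257 and 263 CPM in skin and at 5.69 to 11.9 CPM in spleen (median 9.73). The difference of -2.53 ± 0.26 (5.78-fold higher in skin, adjusted p = 2.57e-06) held in every alternative that tested it. Both tissues lay above spleen, and skin far above heart. Itgae, the CD103 chain that binds E-cadherin of epithelia, had 203, 289 and 283 CPM in heart and 783, 611 and 524 CPM in skin against 46.9 to 84.3 CPM in spleen (median 52.2; -1.27 ± 0.27, adjusted p = 0.00895).

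Gpr15, a receptor of T cells that enter skin and colon, had 13.7, 18.3 and 16.8 CPM in heart, within the spleen range of 8.78 to 22.3 CPM (median 13.5), and 52, 48.4 and 50.9 CPM in skin (-1.44 ± 0.32, adjusted p = 0.0108). For Gcnt1, Itgae and Gpr15 the skin libraries lay above all heart libraries. Leaving out heart replicate 1 ended the calls of Itgae (adjusted p = 0.181), Gpr15 (0.221) and Icam1 (0.0799). Gpr183 (-0.92 ± 0.16) and Itgb8 (-1.29 ± 0.26), the integrin chain with which Tregs activate TGF-beta, lost theirs with Endo libraries alone (adjusted p = 0.0602 and 0.0764). Ccr10, the receptor for the keratinocyte chemokine CCL27, had 1.32, 0.708 and 1.26 CPM in heart and 14.2, 9.94 and 10.7 CPM in skin, yet was not called (-2.78 ± 0.85, adjusted p = 0.0905).

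**Figure D3:**
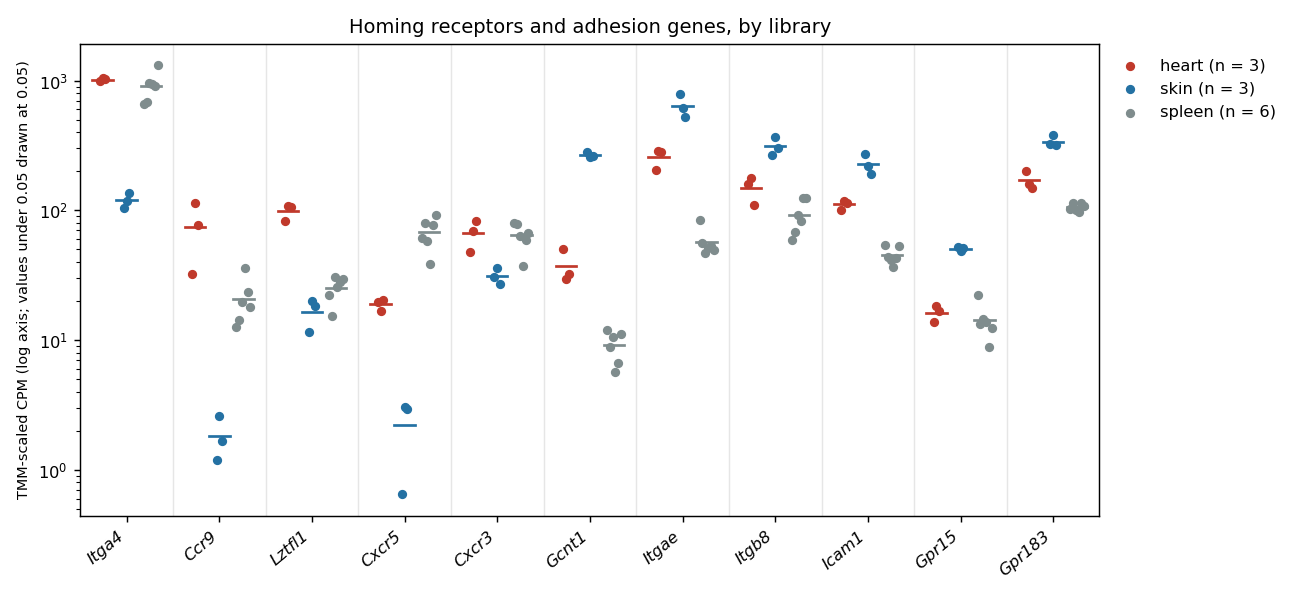
CPM on a log axis for 11 homing and adhesion genes; dots are libraries of heart (n = 3), skin (n = 3) and spleen (n = 6), and short lines are group means. Itga4, Ccr9, Lztfl1, Cxcr5 and Cxcr3 are lower in skin than in heart, and the other 6 genes are higher in skin, where the 3 libraries lie close together for Gcnt1 and Gpr15.

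Type 2 and helper lineage genes were called in both directions. Of 16 measured genes of the IL-33 receptor and type 2 list, 4 were higher in heart and 1 (Crlf2, adjusted p = 0.0277) higher in skin, with a median of 0.23. The call of Crlf2 was lost without heart replicate 1 (0.146) or 2 (0.0696) and without skin replicate 1 (0.11) or 2 (0.106). It was also lost with Endo libraries alone, at -0.88. Of 23 helper lineage factors and cytokines, 1 was higher in heart (Cxcr5, described above) and 4 in skin (Ahr, Batf, Prdm1, Il23r), with a median of -0.25. The type 2 calls on the heart side depended on few libraries: without heart replicate 1 or without skin replicate 3 there were 0 of them, and without heart replicate 2, skin replicate 1 or skin replicate 2 there was 1. Those counts are from edgeR's test; on all libraries DESeq2 gave 4, limma-voom 2, and an unadjusted p of 0.05 passed 5.

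Pparg, the nuclear receptor of fat-tissue Tregs, differed between the tissues and from spleen. It had 29.6, 60.1 and 61.3 CPM in heart, 7.02, 8.36 and 7.66 CPM in skin and 0.633 to 2.32 CPM in spleen (median 1.62). The difference was 2.11 ± 0.39 (4.31-fold, adjusted p = 0.00286), and no alternative ended the call. It was the only called gene among 23 of the PPAR-gamma and fat handling list (median 0.15). Plin2, a lipid droplet coat protein, had 96.6, 103 and 104 CPM in heart and 48.1, 50 and 50 CPM in skin and was not called (adjusted p = 0.424). Il1rl1, the IL-33 receptor chain ST2, had 1850, 1950 and 1190 CPM in heart and 1060, 1160 and 1090 CPM in skin, with 45.6 to 82.1 CPM in spleen (median 48.3). Both tissues were far above spleen, and the small difference between them (0.83 ± 0.22, adjusted p = 0.0361) lost its call in 13 alternatives, without heart replicate 1 (0.101) among them.

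Il5, the eosinophil cytokine, had 16.1, 12.8 and 17.4 CPM in heart, 2.22, 1.24 and 0.383 CPM in skin and 0 counts in all spleen libraries (3.61 ± 0.86, adjusted p = 0.0272). Its groups did not overlap, but the call was lost without heart replicate 1 (adjusted p = 1) or 2 (0.058) and without skin replicate 2 (0.0959) or 3 (0.113). Il13 had 4.99, 8.73 and 17.1 CPM in heart and at most 2.12 CPM in skin and was not called (adjusted p = 0.386). Il17rb, a receptor chain for IL-25, had 18.7, 30.3 and 29.6 CPM in heart and 4.8, 10.2 and 6.64 CPM in skin (1.56 ± 0.36, adjusted p = 0.0168; 0.0697 without heart replicate 1, 0.101 without skin replicate 1 and 0.0755 without skin replicate 3). The call of Il17rb was also lost with Endo libraries alone, at 1.39. Gata3, the lineage factor of type 2 cells, did not differ (-0.06 ± 0.19, adjusted p = 0.942), and its direction turned in several alternatives.

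Prdm1 encodes Blimp-1, a driver of effector Treg differentiation. It stood at 126, 136 and 117 CPM in heart, 311, 302 and 314 CPM in skin and 29.3 to 62.1 CPM in spleen (median 42.1), a difference of -1.52 ± 0.21 (adjusted p = 8.09e-05). Ahr, the receptor of tryptophan products and dioxins, had 99.5, 87 and 85.5 CPM in heart, 186, 221 and 216 CPM in skin and 27.7 to 37.3 CPM in spleen (median 31.7; -1.2 ± 0.17, adjusted p = 0.000141). Each of these genes had skin above heart and heart above spleen, in every library and with the call kept in every alternative.

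Batf, a partner of IRF4 in tissue Treg genes, was lower in heart too (-1.22 ± 0.27, adjusted p = 0.0108), a call lost without heart replicate 1 (0.15) or skin replicate 1 (0.068). Il23r, the IL-23 receptor chain, had 9.7, 5.11 and 5.51 CPM in heart and 41.6, 46.7 and 49.8 CPM in skin (-2.08 ± 0.54, adjusted p = 0.0377), a call lost in 8 alternatives, without heart replicate 1 (0.47) among them. Il17a had 2.35, 3.07 and 2.6 CPM in heart and 16.8, 10 and 12 CPM in skin, was at 0 in spleen and was not called (adjusted p = 0.232). Markers of gamma delta T cells, which make IL-17 in skin and include Il17a, summed to 11.3 to 15.3 CPM in heart and 26.6 to 33.4 CPM in skin. Trdc, their defining receptor gene, had 8.19, 3.3 and 4.64 CPM in heart and 7.94, 8.47 and 9.31 CPM in skin, and the part of such cells in these results was not tested.

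Costimulatory and inhibitory receptors were in part higher in skin. Of 24 measured, 2 were higher in heart (Cd96, Nt5e) and 4 in skin (Tnfrsf9, Tnfrsf4, Icos, Havcr2), with a median of -0.21. Icos, a costimulator that effector Tregs need for survival, had 1270, 1260 and 809 CPM in heart, 2350, 2310 and 2560 CPM in skin and 183 to 267 CPM in spleen (median 193; -1.19 ± 0.21, adjusted p = 0.00184). Heart replicate 3 was the lowest, and the groups did not overlap. Cd96, a receptor for CD155, went the other way, with 82, 61 and 98.6 CPM in heart, 34.5, 41.8 and 46.2 CPM in skin and 155 to 210 CPM in spleen (median 187; 1.11 ± 0.19, adjusted p = 0.00166). The calls of Icos and Cd96 held in every alternative.

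Havcr2, or TIM-3, had 72.2, 57.8 and 49.8 CPM in heart and 183, 140 and 136 CPM in skin (-1.39 ± 0.31, adjusted p = 0.0165). Its call was lost without skin replicate 1 (0.069) and with limma-voom (0.0851). Tnfrsf4, or OX40 (-0.89 ± 0.19), lost its call without heart replicate 1 (adjusted p = 0.141), and Tnfrsf9, or 4-1BB (-0.89 ± 0.21), without heart replicate 1 (0.221), skin replicate 1 (0.0668) or skin replicate 2 (0.0843). Nt5e, the CD73 enzyme that makes adenosine, was higher in heart by 0.9 ± 0.21. Its call was lost without heart replicate 1 (adjusted p = 0.26), skin replicate 1 (0.0667), skin replicate 3 (0.0997) or the bone and muscle libraries (0.0514). Ctla4, with 1750, 2000 and 1470 CPM in heart and 2650, 2100 and 2050 CPM in skin, was not called (adjusted p = 0.113), nor was Tigit (-0.86 ± 0.24, adjusted p = 0.0584).

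Ligands of the TNF family were called in both directions. In the list of 31 NF-kB and TNF family genes, the ligands Tnfsf8, Tnfsf11 and Cd40lg were higher in heart and Bcl2l1, Icam1, Cd83 and Tnfsf9 higher in skin (median -0.04). Cd40lg, which activates B cells and dendritic cells, had 37.1, 49.5 and 47.3 CPM in heart, 11.6, 16 and 14.8 CPM in skin and 26.9 to 42.5 CPM in spleen (median 32.9; 1.44 ± 0.25, adjusted p = 0.0015). Tnfsf11, or RANKL, had 24, 33.7 and 40.1 CPM in heart and 7.85, 6.55 and 10.1 CPM in skin (1.62 ± 0.3, adjusted p = 0.00262). Cd83, a surface protein of activated T and dendritic cells, had 163, 146 and 155 CPM in heart and 402, 337 and 324 CPM in skin (-1.18 ± 0.17, adjusted p = 0.000238). These 3 calls held in every alternative, while that of Tnfsf8 was lost without heart replicate 1 (adjusted p = 0.146). Tnfsf9 (-1.66 ± 0.39), the ligand of 4-1BB, lost its call in 7 alternatives, without heart replicate 1 (0.0839) among them, and Bcl2l1 (-0.69 ± 0.19), a survival factor, in 13, with RLE scaling (0.0524), upper-quartile scaling (0.0602) and each single skin replicate left out among them.

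Repair and growth factors were called in both directions: of 26 measured, 3 were higher in heart (Lrig1, Hpgds, Fgl2) and 2 in skin (Penk, Jag1), with a median of -0.06. Lrig1, a membrane protein that restrains ErbB receptors and is found on Tregs, had 203, 127 and 78.5 CPM in heart, 26.3, 32.7 and 24 CPM in skin and 138 to 172 CPM in spleen (median 155; 2.4 ± 0.28, adjusted p = 3.2e-05). Heart varied widely about the spleen level, and skin lay below both. Jag1, a Notch ligand by which skin Tregs are known to act on hair follicle stem cells, had 12, 17.9 and 14.2 CPM in heart, 75.5, 85.7 and 81.2 CPM in skin and 1.9 to 4.46 CPM in spleen (median 2.32; -2.74 ± 0.32, 6.69-fold higher in skin, adjusted p = 8.98e-06). Its libraries formed 3 levels, with skin above heart and heart above spleen, and both genes kept their call in every alternative.

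Fgl2, a secreted inhibitor made by Tregs, had 566, 1140 and 842 CPM in heart, 307, 365 and 374 CPM in skin and 38.9 to 68.3 CPM in spleen (median 53.1; 1.3 ± 0.27, adjusted p = 0.00824; 0.0668 with Endo libraries alone). Penk, the precursor of enkephalins, was higher in skin (-1 ± 0.23, adjusted p = 0.0158). Its call was lost without heart replicate 1 (0.169), skin replicate 1 (0.068) or skin replicate 2 (0.0706), and with Endo libraries alone, at -1.11. Areg, or amphiregulin, had 287, 474 and 356 CPM in heart and 648, 472 and 445 CPM in skin and was not called (-1.21 ± 0.46, adjusted p = 0.236). Il10 was not called either (adjusted p = 0.979). Hpgds, a prostaglandin D synthase, had 21.4, 29.1 and 10.7 CPM in heart and 2.22, 4.18 and 4.47 CPM in skin (2.2 ± 0.53, adjusted p = 0.0211), a call lost in 6 alternatives, without heart replicate 1 (0.341) among them. Without heart replicate 1 the repair list had 2 genes higher in heart and 1 higher in skin.

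Among 15 granule proteins, Ctsw was higher in heart and Serpinb6b higher in skin by edgeR (median 0.2). For heart and skin, DESeq2 gave 3 and 4 calls, limma-voom 1 and 3, and an unadjusted p under 0.05 passed 5 and 4. Ctsw, a cathepsin of cytotoxic lymphocytes, had 38.6, 53.6 and 43.1 CPM in heart, 9.88, 7.45 and 7.4 CPM in skin and 6.05 to 29.5 CPM in spleen (median 21.5; 2.6 ± 0.42, adjusted p = 0.00109), and both calls held in every alternative. Of the granzymes, proteases that such cells inject into targets, Gzmb, Gzma and Gzmc leaned to skin without a call in edgeR's test. Gzmb stood at 264, 233 and 201 CPM in heart and 1050, 963 and 802 CPM in skin (-1.59 ± 0.5, adjusted p = 0.137). Gzma and Gzmc gave -3.44 and -2.69 (adjusted p = 0.0689 and 0.163).

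**Figure D4:**
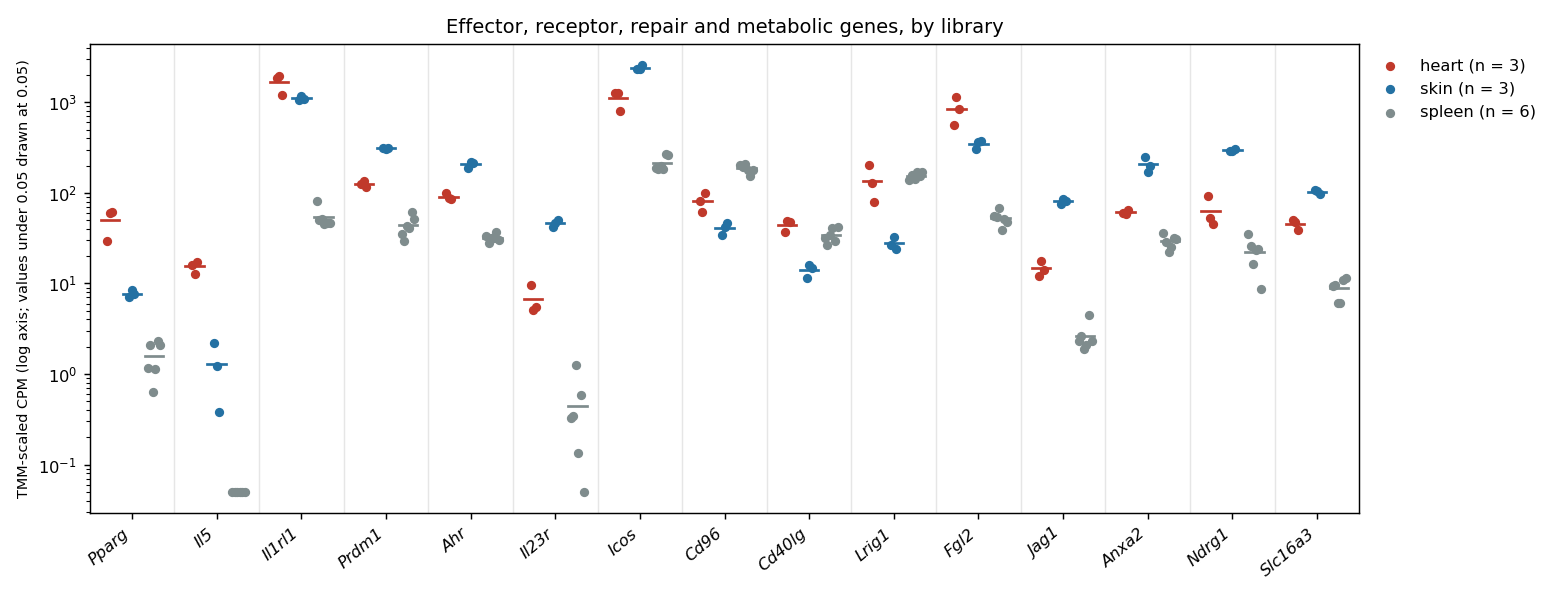
CPM on a log axis for 15 effector, receptor, repair and metabolic genes; dots are libraries of heart (n = 3), skin (n = 3) and spleen (n = 6), values under 0.05 CPM are drawn at 0.05, and short lines are group means. Jag1, Prdm1, Ahr and Icos form 3 levels with skin highest and spleen lowest, and Pparg has heart highest.

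Genes of glycolysis and hypoxia were called on the skin side alone: 6 of 29 measured were higher in skin and 0 higher in heart, and the median was -0.52. The count ran from 2 without heart replicate 1 to 11 without the naming style, and was 3 without skin replicate 1. No member was called higher in heart under any of the 26 alternatives, DESeq2 (0 and 10) and limma-voom (0 and 5) included, and at an unadjusted p under 0.05 the edgeR counts were 0 and 13. Ndrg1, a hypoxia-induced gene, had 91.2, 52.7 and 45.7 CPM in heart, 289, 287 and 305 CPM in skin and 8.65 to 35.4 CPM in spleen (median 23.5; -1.86 ± 0.33, adjusted p = 0.00387). Slc16a3, the lactate exporter MCT4, had 50.1, 48.1 and 39.3 CPM in heart, 108, 106 and 96.5 CPM in skin and 6.03 to 11.5 CPM in spleen (median 9.4; -1.21 ± 0.26, adjusted p = 0.00977). These calls held in every alternative.

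Pkm, the enzyme of the last step of glycolysis, had 513, 506 and 619 CPM in heart and 1160, 1120 and 999 CPM in skin (-0.93 ± 0.18, adjusted p = 0.00415; 0.0937 without heart replicate 1). Slc2a1, the glucose transporter GLUT1 (-0.75), Ddit4, an inhibitor of mTORC1 (-1.14), and P4ha1, a collagen prolyl hydroxylase (-0.93), lost their calls in 9, 4 and 16 alternatives, without heart replicate 1 (adjusted p = 0.214, 0.264 and 0.0916) among them. Ldha and Eno1, enzymes of the same pathway, gave -0.58 and -0.52 and were not called (adjusted p = 0.139 and 0.302).

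The promoters of 4 of the 5 called genes with a listed promoter are shown for the hypoxia core ACGTG, the letters to which the hypoxia-inducible factor binds in its known targets. Each covers the 250 bases before the RefSeq start on GRCm38.p6, on the gene's strand, at chr11:120948817-120949066 (+ strand), chr4:119108495-119108744 (+ strand), chr10:59951771-59952020 (- strand) and chr10:59323046-59323295 (+ strand). Capitals mark the same motifs as above.

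Slc16a3: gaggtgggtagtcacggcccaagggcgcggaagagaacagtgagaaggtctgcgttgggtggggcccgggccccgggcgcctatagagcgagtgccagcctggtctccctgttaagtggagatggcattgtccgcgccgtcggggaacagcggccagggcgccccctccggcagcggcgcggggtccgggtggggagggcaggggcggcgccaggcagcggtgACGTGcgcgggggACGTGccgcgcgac

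Slc2a1: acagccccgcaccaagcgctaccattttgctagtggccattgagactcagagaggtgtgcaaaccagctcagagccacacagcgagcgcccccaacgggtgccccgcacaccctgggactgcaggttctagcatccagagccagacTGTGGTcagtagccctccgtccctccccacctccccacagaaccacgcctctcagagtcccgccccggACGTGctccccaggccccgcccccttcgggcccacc

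Ddit4: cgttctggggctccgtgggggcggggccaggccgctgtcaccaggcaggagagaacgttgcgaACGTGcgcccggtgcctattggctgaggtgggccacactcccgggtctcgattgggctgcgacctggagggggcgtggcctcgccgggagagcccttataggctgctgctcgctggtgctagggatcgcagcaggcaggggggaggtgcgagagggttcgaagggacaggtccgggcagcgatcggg

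P4ha1: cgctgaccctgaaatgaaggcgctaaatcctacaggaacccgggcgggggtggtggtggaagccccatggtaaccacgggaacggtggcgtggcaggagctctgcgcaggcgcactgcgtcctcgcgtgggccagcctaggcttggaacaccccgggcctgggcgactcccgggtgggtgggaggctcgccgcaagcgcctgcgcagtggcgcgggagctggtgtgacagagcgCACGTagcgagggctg

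Slc16a3 held the core at 27 to 23 and 14 to 10 bases before the start, Slc2a1 at 36 to 32, Ddit4 at 187 to 183 and P4ha1, on the other strand, at 16 to 12. Slc2a1 also held a RUNX core at 104 to 99. The core was in all 5 called members that had a listed promoter, in 15 of 25 members of the list that had one, in 24% of 104 genes higher in skin, in 13.6% of 162 genes higher in heart and in 25% of the 9685 promoters of tested genes. The list was drawn from known hypoxia targets among others, so that the motif describes the list and not the difference between the tissues.

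Structural genes of motile and tissue cells lay in the same direction. Of 25 lamins, annexins, S100 proteins and their companions, 3 were higher in skin (Vim, Lmna, Anxa2) and 0 in heart by edgeR, with a median of -0.53 (DESeq2 7 and 1, limma-voom 5 and 0, unadjusted p under 0.05 12 and 2). Anxa2, a calcium-dependent membrane-binding protein, had 59.5, 58.5 and 65.5 CPM in heart, 251, 168 and 200 CPM in skin and 22.4 to 35.9 CPM in spleen (median 29.7; -1.78 ± 0.21, adjusted p = 1.16e-05), and the call held in every alternative. Vim, or vimentin, had 1860, 2230 and 2420 CPM in heart and 3700, 3960 and 4670 CPM in skin (-0.99 ± 0.21, adjusted p = 0.00805; 0.124 without heart replicate 1). Lmna (-1.46 ± 0.34, adjusted p = 0.0285) lost its call in 7 alternatives, without heart replicate 1 (0.181) among them. Fibroblast markers, cells that also make vimentin, summed to 19.1 to 31.4 CPM in heart and to 17.4, 21.3 and 134 CPM in skin. Without skin replicate 3, the library with the high sum, Anxa2 kept its call and the list had 2 calls in skin. Without heart replicate 1 the list had 2 in each direction. The part of fibroblasts in these differences was not tested.

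The interferon response list leaned to heart: 6 of 40 measured genes were higher in heart and 0 in skin by edgeR, with a median of 0.8 (DESeq2 13 and 1, limma-voom 2 and 0, unadjusted p under 0.05 22 and 1). The heart count ran from 2 with Endo libraries alone, with limma-voom or without skin replicate 3 to 19 with the replicate block in place of naming style, and it was 3 without heart replicate 2 or skin replicate 1. Tgtp2, an interferon-induced GTPase, had 20.6, 36 and 44.6 CPM in heart, 5.72, 9.94 and 8.42 CPM in skin and 61.6 to 77.2 CPM in spleen (median 69.3; 1.89 ± 0.32, adjusted p = 0.00166). It has a near copy in Tgtp1, which was called too (3.45 ± 0.73), and reads of the pair may be shared. The call of Tgtp1 was lost without skin replicate 3 (adjusted p = 0.0849), with limma-voom (0.0538) and with Endo libraries alone, at 2.94. Ddx60, a helicase of antiviral defence, had 46.8, 50.3 and 48.4 CPM in heart, 18.2, 24.3 and 28.5 CPM in skin and 42 to 75.8 CPM in spleen (median 66; 1.31 ± 0.25, adjusted p = 0.00325). Tgtp2 and Ddx60 were called in every alternative, and both were lower in skin than in every spleen library. Rsad2, Xaf1 and Ifit2 lost their calls in 8, 11 and 15 alternatives, without heart replicate 1 (adjusted p = 0.233, 0.142 and 0.062) among them. Isg15, also induced by interferon, was not called (adjusted p = 0.923).

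Cell division genes had lower levels in heart with few calls. Of 25 mitosis genes, 2 were higher in skin (Kif20a, Plk1) and 0 in heart by edgeR, and the median was -1.23. In skin DESeq2 gave 6, limma-voom 2, an unadjusted p under 0.05 18 and no filter on low counts 18, and in heart each gave 0. Without naming style there were 0 calls and the median was -0.62, with Kif20a at -0.76 (adjusted p = 0.391) and Plk1 at -0.66 (0.584); without heart replicate 1 these genes had adjusted p values of 0.11 and 0.221. Of 25 DNA replication genes, 0 were called in either direction by edgeR and the median was -0.4 (in skin DESeq2 gave 1, limma-voom 0 and an unadjusted p under 0.05 8). Heart replicate 3 stood apart: Kif20a had 13.3, 15.3 and 36.9 CPM in heart and 42.4, 32.7 and 36.1 CPM in skin, and Ccna2, or cyclin A2, had 52.3, 36.7 and 130 CPM in heart and 156, 125 and 146 CPM in skin. Without heart replicate 3, 8 mitosis genes were called, and without heart replicate 2, skin replicate 1 or skin replicate 3 there were 0. Mki67 was not called (-0.73 ± 0.72, adjusted p = 0.75).

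In the Treg identity list of 18 genes, 2 were higher in heart and 1 in skin (Itgb8, described above), with a median of -0.09. Gpr83, a receptor of resting Tregs, had 7.35, 10.5 and 17.2 CPM in heart, 1.57, 1.35 and 0.51 CPM in skin and 106 to 160 CPM in spleen (median 127; 3.28 ± 0.45, adjusted p = 0.000274), and its call held in every alternative. Izumo1r, or folate receptor 4, was higher in heart by 1.06 ± 0.21 (adjusted p = 0.00475; 0.136 with Endo libraries alone). Il2ra, the IL-2 receptor chain CD25, and Ikzf2, or Helios, were not called (adjusted p = 0.597 and 0.123).

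Among 28 immediate early genes, Egr1 and Egr2 were higher in heart and 2 genes were higher in skin (median 0.07). Egr1, a factor induced within minutes of receptor signals, had 173, 302 and 277 CPM in heart and 69.7, 59.7 and 78.6 CPM in skin (1.25 ± 0.23, adjusted p = 0.00325). Without heart replicate 1, neither Egr1 (adjusted p = 0.0598) nor Egr2 (0.0609) was called. Cholesterol synthesis had 1 call among 19 genes (Cyp51, 0.73 ± 0.18, lost in 8 alternatives, without heart replicate 1 (0.125) among them; median 0.35). The lists of circadian clock, heat shock and chaperone, amino acid and stress response, metallothionein and redox, and chemokine ligand genes, with 17, 22, 16, 21 and 12 measured members, had 0 calls in edgeR's test. Their medians were 0.11, -0.25, -0.13, -0.13 and 0.27. At an unadjusted p under 0.05 they had 2, 1, 0, 0 and 1 members higher in heart and 0, 3, 2, 6 and 0 higher in skin. DESeq2 gave 1 call in skin in the amino acid list and 1 in the metallothionein list, and limma-voom gave 0 in all 5.

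**Figure D5:**
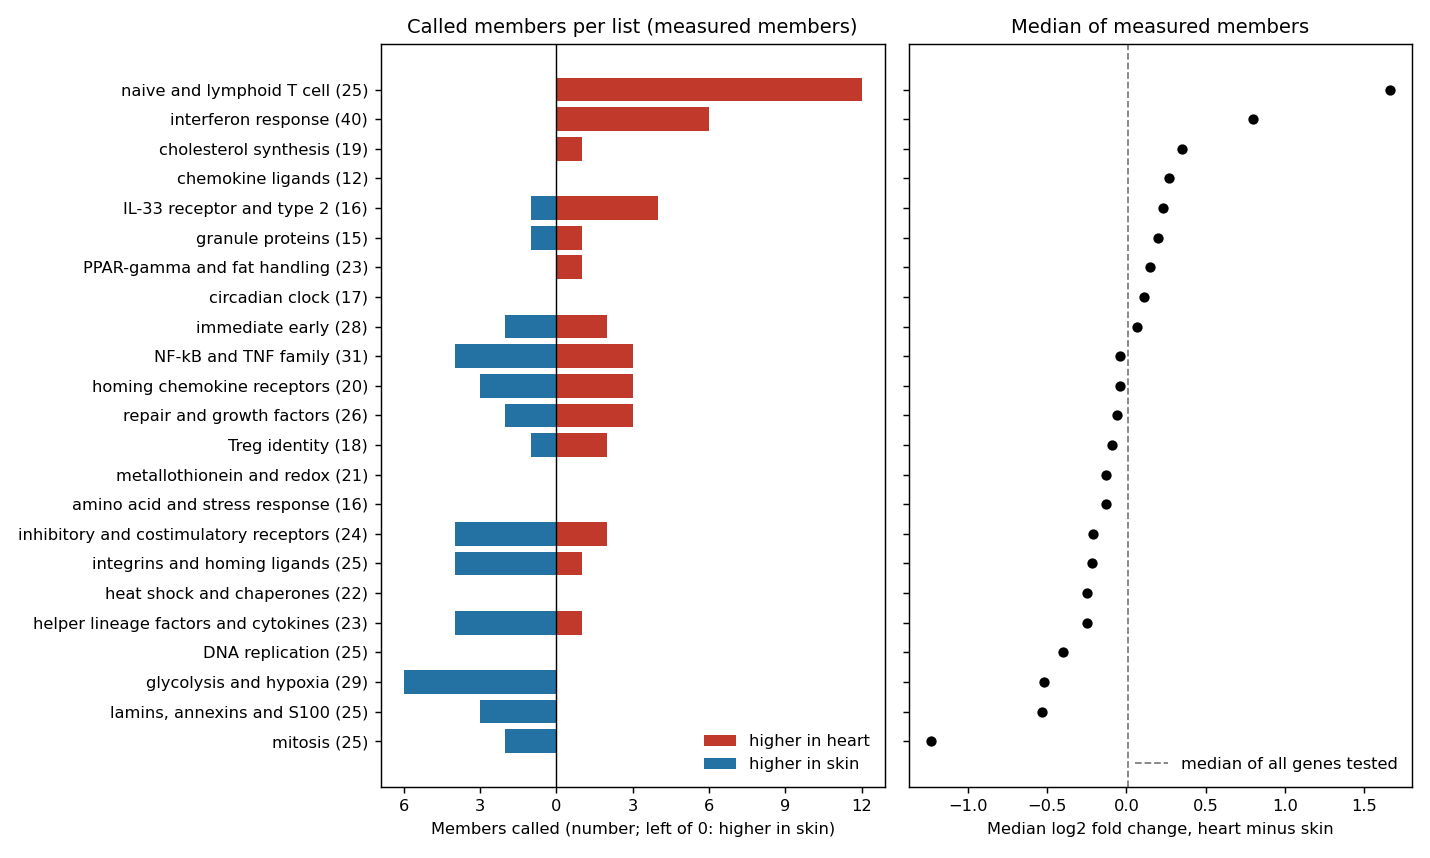
For each of 23 gene lists, with its number of measured members in brackets, the left panel gives the number of members called higher in heart (red, right of 0) or in skin (blue, left of 0), and the right panel the median log2 fold change of heart minus skin beside that of all genes tested (dashed). Naive and lymphoid T cell genes have 12 calls, all on the heart side, and glycolysis and hypoxia genes 6, all on the skin side.

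Several of the genes with the largest differences belong to no list. Dhrs3, an enzyme that turns retinaldehyde back to retinol, had 43.8, 43.9 and 39 CPM in heart, 7.11, 5.65 and 4.85 CPM in skin and 6.41 to 11.1 CPM in spleen (median 9.52; 2.75 ± 0.32, adjusted p = 1.04e-05). It was the heart libraries that stood apart here, with skin near spleen. Aff3, a nuclear protein of lymphocytes, was higher in heart by 2.4 ± 0.28 (adjusted p = 1.32e-05), and like Tcf7 lay below spleen. Stab1, a scavenger receptor, was higher in heart by 2.45 ± 0.49 and lost its call without heart replicate 1 (adjusted p = 0.105), the library with the high macrophage sum. Stab1 stood at 37, 32.6 and 31.6 CPM in heart and at 7.57, 6.77 and 6.12 CPM in skin, and the part of macrophages was not tested. Ablim3, an actin-binding protein, was higher in heart by 2.65 ± 0.61. Its call was lost without heart replicate 1 (adjusted p = 0.0565), skin replicate 2 (0.0659), skin replicate 3 (0.0629) or the bone and muscle libraries (0.0538).

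On the skin side, Cdc42bpb, a kinase of the actin cytoskeleton, had 8.95, 3.3 and 3.78 CPM in heart, 38.8, 46.4 and 43 CPM in skin and 1.39 to 5.09 CPM in spleen (median 2.78; -3.08 ± 0.43, adjusted p = 0.000125). Maged1, an adaptor of the MAGE family, had 5.84, 3.7 and 2.83 CPM in heart, 32.8, 29 and 33 CPM in skin and 1.27 to 8.17 CPM in spleen (median 4.14; -2.97 ± 0.58, adjusted p = 0.00513). In both, heart was near spleen and skin stood apart. Sh3bp4, an endocytic adaptor, gave -1.95 ± 0.37 (adjusted p = 0.00353), and the calls of all 3 genes held in every alternative. Mreg, Msrb3 and Klf12 gave -2.62, -1.92 and -1.84 and lost their calls in 12, 11 and 8 alternatives, Msrb3 (adjusted p = 0.418) and Klf12 (0.223) also without heart replicate 1. Metrnl, a secreted protein, gave -1.98 ± 0.45 and lost its call without heart replicate 1 (adjusted p = 0.0522) or skin replicate 1 (0.0727). Marcks gave -2.23 ± 0.51 and lost its call without skin replicate 1 (0.0594) or 3 (0.0642), and with Endo libraries alone, at -1.48.

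Some genes had 0 counts in all libraries of 1 tissue. Mycl, a MYC family factor, had 0 counts in heart and 1.29, 1.35 and 2.3 CPM in skin, at least 19.8-fold higher against a floor of 3 counts over the heart libraries (0.0832 CPM; adjusted p = 0.00998, 0.139 with Endo libraries alone). Gcsam had 0 counts in heart and 1.38, 3.73 and 0.638 CPM in skin, at least 23-fold higher (adjusted p = 0.0427). That call was lost when any 1 heart or skin library was left out, without naming style (0.131) and with limma-voom (0.0851). It was also lost without most single spleen libraries, and with Endo libraries alone, at -7 on the log2 scale. Cpne7 had 0 counts in skin and 1.79, 0.944 and 2.91 CPM in heart, at least 17.3-fold higher, and was not called (adjusted p = 0.0618). These bounds cover counting error alone and are not adjusted for naming style.

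Markers of further cell types were low. Neutrophil genes summed to 4.43, 52.2 and 16.1 CPM in heart and to 11.6 to 23.1 CPM in skin, but through different genes. In skin Ltf alone had 23.1, 22.7 and 11.2 CPM, and none of the other 9 exceeded 0.255 CPM in any library. In heart S100a8 stood at 0, 11.4 and 3.78 CPM, S100a9 at 0, 14.9 and 5.98 CPM and Ltf at 2.54, 10.7 and 3.31 CPM, with replicate 2 highest in each. Dendritic cell markers summed to 17.7 to 41.1 CPM in heart and 36.7 to 64 CPM in skin, and CD8 T and NK cell markers to 12.7 to 29.3 and 33.1 to 39.3 CPM. Of 10 mast cell genes 8 were at 0 in all 6 libraries, while Kit had 8.89 to 12.8 CPM in heart and 15.4 to 22.2 CPM in skin. The 12 heart muscle genes summed to at most 5.84 CPM in heart and 0.226 CPM in skin, and to 5.79 to 15.7 CPM in spleen. Endothelial markers summed to 81.6 to 98.7 CPM in heart and 59.3 to 65.3 CPM in skin, mostly Pecam1, which T cells also express. Pecam1 was called higher in heart (0.56 ± 0.15, adjusted p = 0.0454) and lost the call in 11 alternatives, without heart replicate 1 (0.428) among them. The 12 keratinocyte genes summed to 20 to 39.3 CPM in heart and 28.1 to 35 CPM in skin. Most of this was Sfn, which had 15.7 to 27.7 CPM in spleen. Of the 12 genes 7 were at 0 in all heart libraries, Krt14 (at most 3.06 CPM in skin) among them, and 2 in all skin libraries. The part of these cells in the differences was not tested.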

How the data were processed

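RNA of sorted Tregs was sequenced in 18 libraries, made from 1 ng of RNA each with the Ovation Solo kit, per the labels' protocols. The authors deposited raw counts per gene in a table of heart and spleen and another of bone, muscle, skin and spleen. They were joined by gene identifier, and the shared spleen columns were identical. The submitters' processing notes name GRCm38, STAR, featureCounts and limma without versions; no source used here gives annotation, strand setting or multi-mapping. Positions came from GENCODE M21, which held 45143 of 46078 genes, and promoters from RefSeq (GRCm38.p6).

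Genes were filtered with filterByExpr, scaled by TMM and tested in edgeR 4.0.16 (R 4.3.3) by the robust quasi-likelihood F test, in a model of group and naming style over all 18 libraries, with Benjamini-Hochberg adjustment over 15926 genes at 0.05. Adjusted p values in the text come from this test unless another tool is named. Each SE is the log2 fold change divided by the root of F, and CPM uses TMM library sizes. The Endo-only alternative leaves 1 heart library, taken to vary like the other groups. Alternatives also used DESeq2 1.42.0 and limma-voom 3.58.1. The test was also run on simulated counts whose style shift was the same in every group. The outcome is not reported here, and that run could not check a style effect that differs between tissues. The p values rest on a spread estimated over all 18 libraries. Those of the injured tissues are pools of mice, and whether the spleen libraries were pooled is not stated. Replicates of a tissue differed by 13.4 to 104 times counting noise (chi-square over its degrees of freedom, over genes reaching 40 counts in a pair), so that none was a repeat of another.

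Genes named were the 12 highest and 12 lowest fold changes among called genes whose libraries did not overlap and whose log2 CPM averaged 3 or more (Y-linked genes, Xist, antigen receptor segments and genes with clone names were left out), then members of the lists, 15 fixed genes and up to 5 genes per direction at 0 counts in 1 group. Lztfl1 was added after its values were seen. Members, lists and fixed genes were chosen with earlier results of these data known. Some members of the lists count in them but are not reported by name here.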

Additional observations from a re-analysis of the deposited data

Results flagged for a closer look

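Of 34 genes whose spleen levels are printed above or below, 4 had a spleen library that stood far from the other 5, judged by its gap relative to the group's whole range; chance gives such a gap in about 1 in 20 groups. Il1rl1 stood at 82.1 CPM in spleen replicate 1 and at 45.6 to 51.7 CPM in the others, and Itgae at 84.3 CPM in the same library and 46.9 to 56.2 CPM in the others. Jag1 stood at 4.46 CPM in spleen replicate 5 and at 1.9 to 2.6 CPM in the others. Cyp11a1 stood at 0.844 CPM in spleen replicate 6 and at 0 to 0.173 CPM in the others. Spleen replicate 1 was also the library richest in ribosomal RNA (10.3% of counts). In Itgae and Jag1 the spleen library that stands apart lies below every heart and skin library, and so it does in Il1rl1.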

How the results depend on the processing

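The 26 alternatives changed the number of calls. Signs were compared only among the 379 called genes, whose heart and skin libraries mostly did not overlap, so that few could turn. Of 379 called genes, 154 (40.6%) kept their call without heart replicate 1, 376 with DESeq2 and 372 with RLE scaling. Without the bone and muscle libraries 289 (76.3%) kept it. The sign turned in 1 gene without heart replicate 1 and in 1 with the replicate number as a term. Counts are given as all, higher in heart and higher in skin, beside 379, 237 and 142. Without naming style they were 742, 435 and 307, with heart and skin libraries alone 1108, 634 and 474, with Endo libraries alone 734, 506 and 228, with DESeq2 672, 387 and 285, with limma-voom 250, 145 and 105, and with no filter on low counts 909, 543 and 366. Leaving out 1 heart, skin or spleen replicate in turn gave 205 to 522 in all, 134 to 331 higher in heart and 66 to 191 higher in skin. Without spleen replicates 1 and 2, an alternative chosen after seeing the data because these libraries were richest in ribosomal RNA (10.3% and 9.9%), the counts were 638, 411 and 227. RLE and upper-quartile scaling, the CPM filter and the choice of gene types stayed within 1.5 times of the main counts, and no alternative moved the median over all genes by 0.1 or more. The cause of these changes was not tested.

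Replicate numbers are shared by heart and skin but did not pair the libraries: deviations of same-numbered libraries from their group means correlated at -0.13, -0.03 and -0.06, and no library correlated best with its own number. With the replicate number as a block in place of naming style, over heart, skin and spleen libraries alone, 841 genes were called. Of these 473 were higher in heart and 368 higher in skin.

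Of the genes named in the report, Gata3, Il10 and Mki67, none of them called, turned direction. Gata3 gave 0.1 without naming style, 0.11 with heart and skin libraries alone and no style term, 0.17 with Endo libraries alone and 0.1 with the replicate block. It gave -0.35 to 0.04 when single replicates were left out, with 0.04 without heart replicate 3. Il10 gave 0.64, 0.64, 0.38 and 0.65 in the same 4 alternatives, 0.16 with limma-voom, 0.22 without spleen replicates 1 and 2 and -0.83 to 0.21 when single heart, skin or spleen replicates were left out. Mki67 gave 0.07 without naming style and 0.08 with heart and skin libraries alone and no style term. Of 109 called genes among those named, 47 kept their call in every alternative. With 3 libraries a tissue, differences such as those of Ccr7, Ccr10, Gzma or Tigit stayed short of the threshold.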

Other observations

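Some gene groups outside the lists drew attention after the values were seen, and they are given as values. The GIMAP genes, a cluster of GTPases that support lymphocyte survival, differed in part: Gimap3 had 216, 198 and 161 CPM in heart and 66.6, 86 and 51.5 CPM in skin (1.63 ± 0.18 on the log2 scale, adjusted p = 4.48e-06), Gimap4 551, 610 and 605 CPM against 142, 226 and 157 CPM (1.67 ± 0.2, adjusted p = 1.04e-05), and Gimap6 410, 348 and 308 CPM against 139, 157 and 100 CPM (1.47 ± 0.17, adjusted p = 1.04e-05). Gimap7 was called (1.31), a call lost with Endo libraries alone, at 0.93. Gimap1, Gimap5, Gimap8 and Gimap9 were not called (0.37 to 0.58). For Gimap3, Gimap4 and Gimap6 heart did not differ from spleen by the test (adjusted p = 0.164, 0.932 and 0.45), and skin was lower than spleen in each.

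Beside Dhrs3, other genes of retinoid handling were looked up. Stra6, the retinol uptake receptor, had 1.98, 1.02 and 1.57 CPM in heart and 0, 0 and 0.128 CPM in skin (adjusted p = 0.0398, lost in 11 alternatives, without heart replicate 1 at 0.117 among them). The retinoic acid receptors Rara and Rarg were not called (0.28 and -0.56, adjusted p = 0.613 and 0.292). Rgs16, a brake on G protein signalling, had 152, 155 and 122 CPM in heart and 27.8, 20.1 and 18.8 CPM in skin (2.19 ± 0.32, adjusted p = 0.00072).

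Dkk3, a secreted protein of the Dickkopf family, had 24.1, 38.6 and 22 CPM in heart, 2.4, 2.71 and 1.02 CPM in skin and at most 0.52 CPM in spleen (4.15 ± 0.77, adjusted p = 0.00334), with its call kept in every alternative. Cyp11a1, the first enzyme of steroid hormone synthesis, had 11.4, 10.2 and 15.3 CPM in heart and 0, 0.113 and 0.255 CPM in skin, and spleen ran from 0 to 0.844 CPM with a median of 0. Its difference (6.13 ± 1.42, adjusted p = 0.0211) lost its call without heart replicate 1 (adjusted p = 0.66), skin replicate 1 (0.118), skin replicate 2 (0.102) or skin replicate 3 (0.0656). DESeq2 narrowly gave no call (0.0501).

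In 6 called genes heart lay above all 6 spleen libraries and skin below all of them, and in 0 called genes the reverse. The same was not counted over all genes tested. Among the 6 were Hic1, a zinc finger repressor (14.2, 9.05 and 17.1 CPM in heart, 0.462, 1.92 and 1.91 CPM in skin), Fmnl3, a formin (76.4, 79.4 and 56.7 CPM against 20.7, 27.6 and 14.4 CPM), Gtf2ird1, Eya2, Ndor1 and the antisense RNA Arhgap27os3. The call of Ndor1 was lost without heart replicate 1 (adjusted p = 0.11) or skin replicate 3 (0.0947) and with Endo libraries alone (0.061). Gpr55, a receptor for lysophosphatidylinositol, was at 103, 69.1 and 65.8 CPM in heart and at 378, 344 and 342 CPM in skin (-1.78 ± 0.29, adjusted p = 0.0015).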
